A study of Homo sapiens with 60 samples.

Results

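Lysozyme (LYZ), alpha-1-antitrypsin (SERPINA1), beta-2-glycoprotein I (APOH) and the nuclear receptors HNF4A and HNF4G were followed across 60 messenger RNA libraries of HT29, a long-established cell line from a human colorectal adenocarcinoma. These are 5 of the 60675 genes in the table. They were chosen on measured values of the same libraries: LYZ, SERPINA1 and APOH for levels that are high for a colon line, and LYZ and APOH also for their difference between LY294002 and vehicle. HNF4A and HNF4G were added as factors of the same tissue type. Levels and every comparison of LY294002 with vehicle are therefore given for these genes as a description, without a test.

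Cells were treated for 24 h, in 21 groups. The vehicle group received DMSO (0.1% per the sample labels, 2% per the series text), and the wortmannin and LY294002 groups received 10 µM of these inhibitors of phosphoinositide 3-kinase (PI3K). Each of 6 herbal water extracts was given, per the labels, at 500, 100 and 20 µg/mL: Poria, Atractylodis, Glycyrrhizae (licorice root), Ginseng, Angelicae and Paeoniae. The series text says that extracts with an IC20 (20% inhibitory concentration) under 500 µg/mL were given at lower doses. The doses of the labels are used here. Every group had 3 libraries apart from the 3 doses of Paeoniae, with 2 apiece. By the first number of the sample code, the libraries form 4 sets: the controls with both inhibitors, then the extracts in pairs (Poria with Atractylodis, Glycyrrhizae with Ginseng, Angelicae with Paeoniae). An extract compared with vehicle is thus also a comparison of code sets, and the 2 cannot be told apart, whereas 500 against 20 µg/mL of 1 extract stays inside a set. The vehicle codes alone carry a letter A before the first number, and the labels do not state its meaning. The titles of all 60 libraries carry the word BatchA. The labels do not state that replicates were separate cultures, so p-values measure the spread between these libraries, which may be technical.

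LYZ cleaves bacterial cell walls and is a product of Paneth cells, macrophages and glandular epithelium. SERPINA1 is the main plasma inhibitor of neutrophil elastase, and APOH is a plasma glycoprotein that binds anionic phospholipids. The liver secretes SERPINA1 and APOH, and gut epithelium can also make SERPINA1. HNF4A and HNF4G are paralogous nuclear receptors that bind the same DNA element. HNF4A drives plasma protein, lipid and bile acid genes in liver, and in intestine both receptors drive brush border and fat absorption genes.

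Summed expected counts, the estimated read counts per gene, ran from 20431980 to 35477712 per library. Levels below are CPM (counts-per-million) after TMM scaling, a correction for library composition. Differences are log2 values from 1 edgeR quasi-likelihood fit of all 60 libraries and 16767 genes, with the standard error (SE). A gene is called at a Benjamini-Hochberg adjusted p under 0.05 over all genes tested, and intervals are 95% intervals without that adjustment. In bulk RNA, fewer cells that express a gene and less of its RNA per cell cannot be told apart. Of 16 colorectal epithelial markers, 15 averaged at least 1 CPM, with CDX1 at 0.864 CPM and CDX2, a master factor of intestinal identity, at 5.07 CPM. All 17 hepatocyte markers averaged under 1 CPM, and together they summed to between 0.509 and 1.57 CPM per library. ALB, the gene of serum albumin, averaged 0.00646 CPM and F9 was at 0 in all libraries. Neutrophil markers summed to at most 0.231 CPM. The macrophage and leukocyte markers PTPRC, CSF1R, SPI1 and TYROBP each averaged under 0.1 CPM, while 4 of the 15 macrophage markers were above 1 CPM (CD14, CD68, ITGAM and CYBB). Of 8 Paneth markers, DEFA5 and REG3A were at 0 in all libraries, and MMP7 at 54.3 CPM and PRSS2 at 1.51 CPM were the 2 above 1 CPM.

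The bases upstream of the start sites of SERPINA1, APOH and HNF4A are shown as the regulatory sequence next to these genes, as a description only. RefSeq promoter windows (GRCh38.p14) were found for 3 of the 5 genes, and SERPINA1 and HNF4A each have 2 listed starts. In the 250 bases upstream of each of the 5 starts, 6 short motifs were searched on both strands. They were chosen from textbook knowledge after the windows had been read: the hexamer GTTAAT, the HNF4 site CAAAGTCCA, the forkhead site TGTTTAC, the nuclear receptor half-site AGGTCA, the C/EBP half-site TTGCGC and the box TATAAA. None of these letters overlapped another match in the windows of these genes. Since GTTAAT had been seen in these windows before it was listed, its count in them is no test. GTTAAT or its reverse complement was in 3 of the 5 windows, and 6.23% of 35116 windows of the same length in the table held it. AGGTCA was present in 1 of the 5 windows and in 12.1% of the table. The other 4 motifs matched in no window of these genes, and their shares in the table were 0.325% for CAAAGTCCA, 2.98% for TGTTTAC, 6.35% for TTGCGC and 10.7% for TATAAA. The windows with a match are shown 5′ to 3′ on the strand of the gene, with GTTAAT and AGGTCA matches in capitals. The APOH window (chr17:66229423-66229665, minus strand) ends 8 bases before the start, because the bases nearer to it lie in annotated exons. The SERPINA1 window lies wholly within annotated exons of transcripts that begin upstream, so 30 bases around the matches are shown (chr14:94388661-94388690, minus strand). The HNF4A window belongs to the downstream start (chr20:44400989-44401238, plus strand), which lies 45540 bases from the upstream one.
SERPINA1: ggggTGACCTtgGTTAATattcaccagcag
APOH: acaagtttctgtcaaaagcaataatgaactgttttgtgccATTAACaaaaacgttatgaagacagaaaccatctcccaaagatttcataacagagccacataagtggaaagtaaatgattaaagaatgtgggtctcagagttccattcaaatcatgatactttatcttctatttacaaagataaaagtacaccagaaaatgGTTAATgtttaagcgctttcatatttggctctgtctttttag
HNF4A: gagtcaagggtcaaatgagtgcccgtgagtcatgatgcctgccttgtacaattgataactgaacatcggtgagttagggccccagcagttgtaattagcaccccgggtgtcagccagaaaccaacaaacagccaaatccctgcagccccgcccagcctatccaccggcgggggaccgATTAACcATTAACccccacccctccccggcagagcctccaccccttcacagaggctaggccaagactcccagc

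The SERPINA1 window holds the AGGTCA match, read on the reverse strand, from base -84 to -79 and the GTTAAT match from -76 to -71, counted back from the first base before the start. APOH has GTTAAT matches from -210 to -205 and from -49 to -44. HNF4A has a pair of reverse-strand matches from -73 to -68 and from -66 to -61. These are matches of letters only. The table of counts sums all transcripts of a gene, so the start that HT29 uses was not tested.

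Per kilobase of exon, LYZ was the most abundant of the 5 genes and HNF4G the least. The 5 genes are protein-coding and lie apart in the genome (GRCh38, GENCODE 29), with LYZ (ENSG00000090382) at chr12:69348341-69354234 on the plus strand, SERPINA1 (ENSG00000197249) at chr14:94376747-94390693 on the minus strand, APOH (ENSG00000091583) at chr17:66212033-66256525 on the minus strand, HNF4A (ENSG00000101076) at chr20:44355700-44434596 on the plus strand and HNF4G (ENSG00000164749) at chr8:75407914-75566843 on the plus strand. LYZ averaged 1496 CPM over the 60 libraries, or 848 CPM per kilobase, took 0.150% of all counts and ranked 42nd of all genes by total count. SERPINA1 averaged 414 CPM (84.5 CPM per kilobase, rank 316), HNF4A 98.4 CPM (13.5 CPM per kilobase, rank 2264), HNF4G 52.9 CPM (10.998 CPM per kilobase, rank 4206) and APOH 21.6 CPM (16.2 CPM per kilobase, rank 7359). On this scale SERPINA1 and LYZ stood far above the other plasma proteins. Of 63 genes on a list of further plasma proteins, 23 were expressed enough to be tested. Their median was 0.442 CPM per kilobase. The highest were F5, coagulation factor V, at 18.5 CPM per kilobase, IGF2, insulin-like growth factor 2, at 12.7, and PROS1, the anticoagulant protein S, at 6.00. The highest of 11 tested apolipoprotein and lipoprotein assembly genes was APOL1 at 6.32 CPM per kilobase, below APOH. Of 9 relatives of lysozyme, 1 was tested, LYG1, which averaged 0.246 CPM. Secretory and antimicrobial genes of the Paneth list reached 304 CPM per kilobase (CD24, a surface glycoprotein), 78.4 (LCN2, the iron-siderophore binding lipocalin 2) and 68.96 (XBP1, a secretory stress factor). LYZ counts were fractional in every library, as the authors' quantification gives where reads are shared between genes. The overlapping antisense gene AC020656.1 averaged 0.739 CPM. Counts of the other 4 genes were whole numbers in every library.

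**Figure D1:**
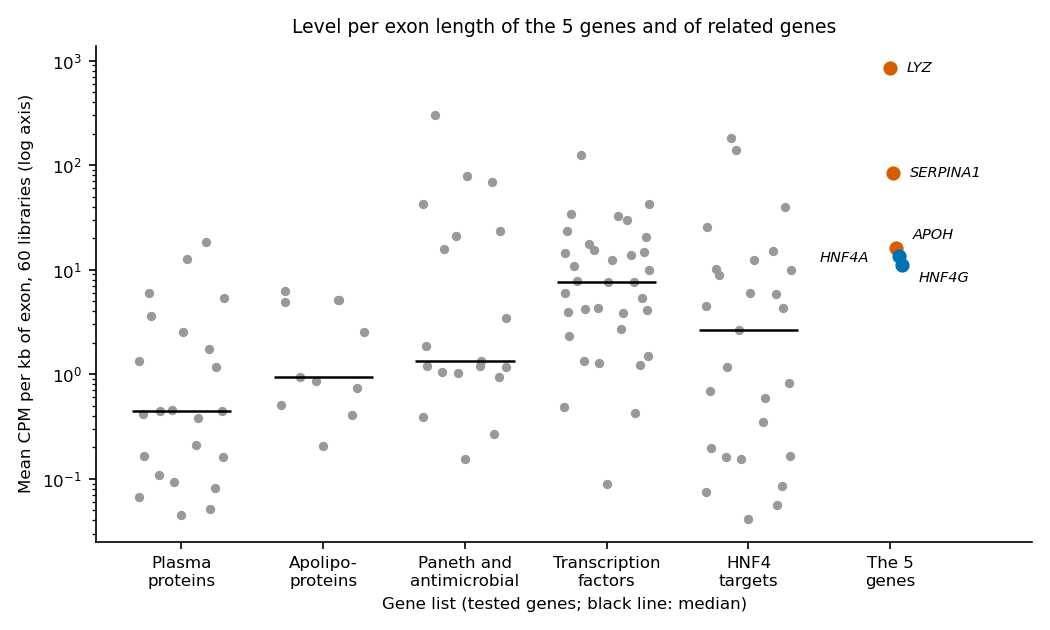
Mean level over 60 libraries in CPM per kilobase of exon (log axis) for the 5 genes, at the right (orange: secreted proteins, blue: HNF factors), and for the tested genes of 5 lists (grey points, with the list median as a black line). LYZ at 848 and SERPINA1 at 84.5 lie above the highest plasma protein of the list, F5 at 18.5, and APOH, HNF4A and HNF4G lie between 10.998 and 16.2.

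LYZ was higher under both PI3K inhibitors than in vehicle and varied little with the extracts. It was measured at 1432, 1368 and 1406 CPM in vehicle, at 1816, 1886 and 1867 CPM with wortmannin and at 1971, 2019 and 2544 CPM with LY294002. The 3 groups did not overlap, and the third LY294002 library was the highest of all 60. The difference between LY294002 and vehicle, for which LYZ was chosen, was 0.64 ± 0.07 (log2, SE), or 55.4% more. It was 0.51 without the third LY294002 library. In this comparison 39.2% of all genes were called. LYZ rose with wortmannin by 0.41 ± 0.07 (adjusted p = 1.4e-05), or 32.4%, where 13.7% of all genes were called. This test shares its vehicle libraries with the comparison that chose LYZ. LYZ was the only one of the 5 genes called with wortmannin. In the 51 extract libraries LYZ ran from 1243 to 1603 CPM with a median of 1438 CPM. Group means lay between 1352 CPM with Poria at 500 µg/mL and 1514 CPM with Atractylodis at 20 µg/mL, a ratio of 1.12. None of 18 comparisons with vehicle and none of 6 comparisons of 500 with 20 µg/mL was called for LYZ. The latter ran from -0.08 to 0.05, and their intervals together covered -0.21 to 0.18. In the order of the 21 group means, LY294002 was apart from wortmannin and wortmannin from the next group, whereas the other 18 pairs of neighbours overlapped.

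**Figure D2:**
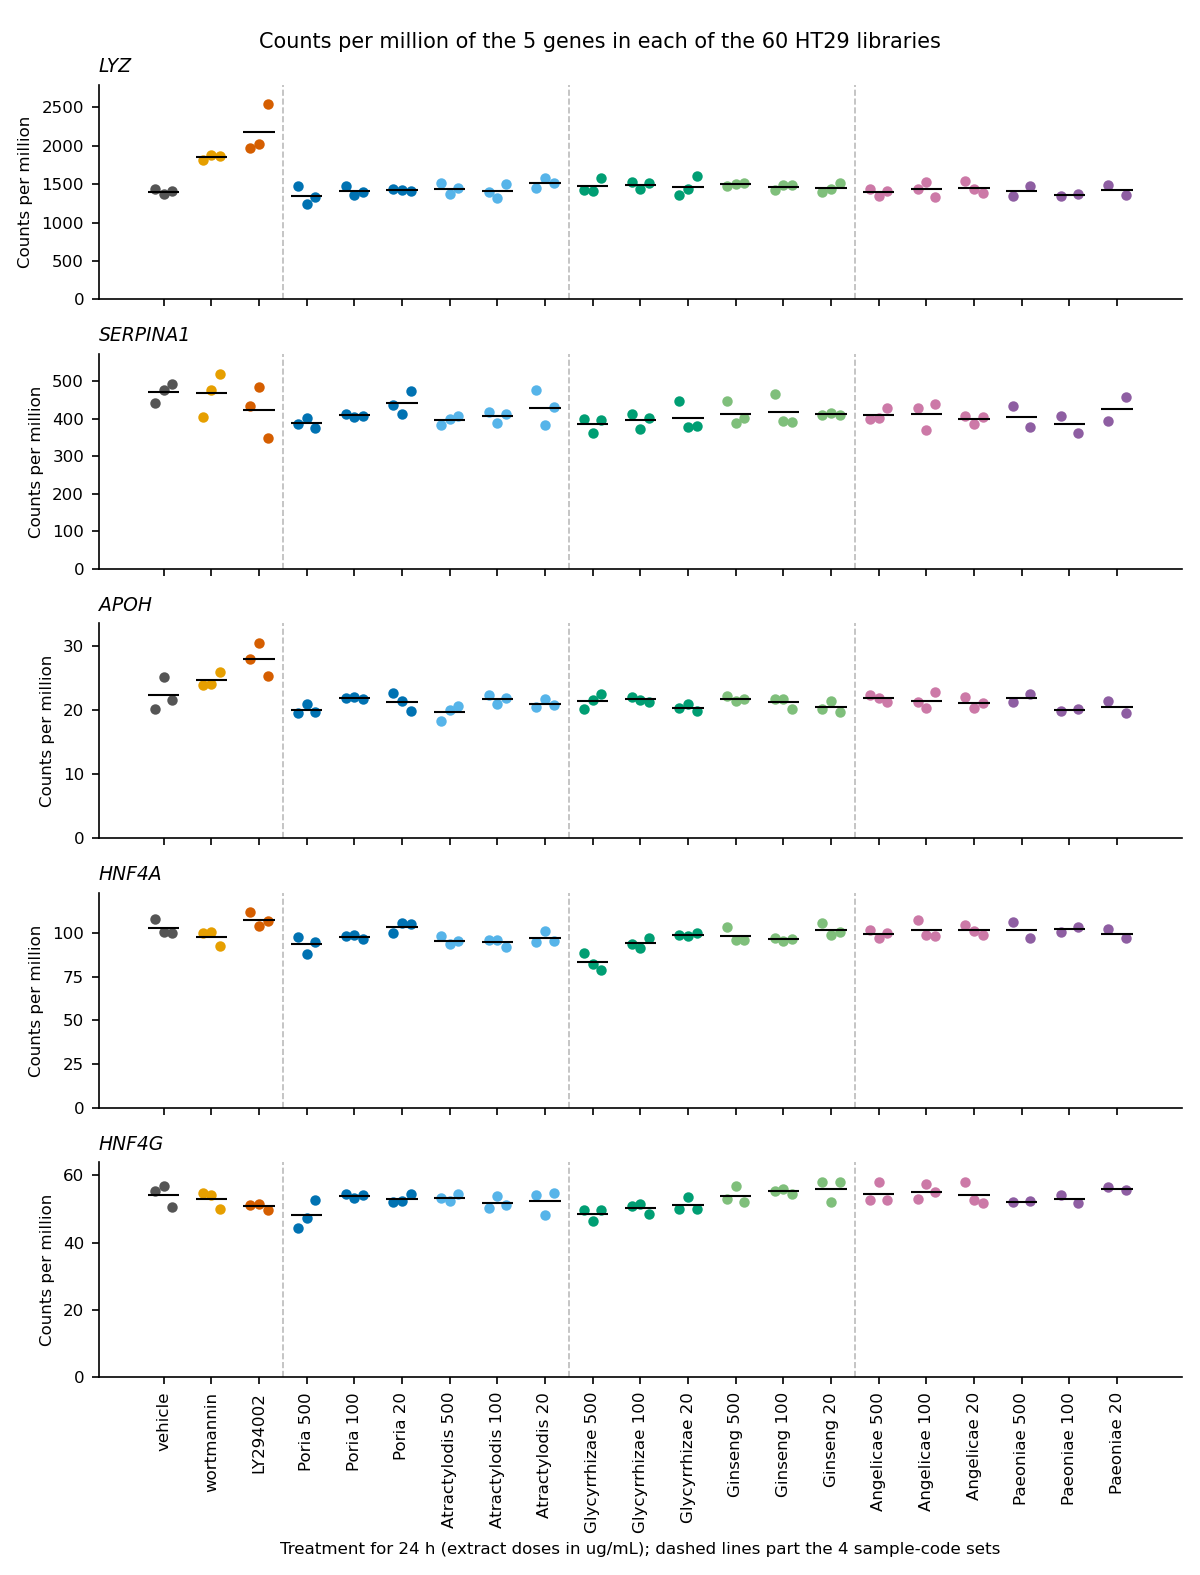
CPM of the 5 genes in each of 60 libraries (points) with group means (black bars), by treatment, with vertical axes from 0 and dashed lines between the code sets. LYZ is at 1816 CPM or more in the 6 inhibitor libraries and at or below 1603 CPM elsewhere, and HNF4A is lowest with Glycyrrhizae at 500 µg/mL, at 78.6 to 88.7 CPM.

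Markers of other LYZ sources did not all move in the direction of LYZ. Paneth markers, mainly MMP7, summed to 54.1 CPM in vehicle, 52.6 with wortmannin and 37.2 with LY294002. Macrophage markers summed to 15.2, 16.1 and 11.8 CPM, and neutrophil markers to no more than 0.231 CPM in any library. The sum of colorectal epithelial markers, mainly KRT8 and KRT18, was 13056 CPM in vehicle, 14887 with wortmannin and 17301 with LY294002. This sum followed the order of LYZ, and its part in the LYZ difference was not tested. Of 19 tested genes of Paneth and antimicrobial secretion, 2 rose and 9 fell with LY294002, where 39.2% of all genes were called, with a median of -0.24 against 0.01 over all genes. LCN2 fell by 0.49 ± 0.09 (adjusted p = 3.7e-05), from 117 ± 9 to 83.4 ± 9.4 CPM (SD, n = 3 libraries per group). XBP1 fell by 0.15 ± 0.05 (adjusted p = 0.0077), a call that was lost without the third LY294002 library (adjusted p = 0.098). With wortmannin 1 of the 19 rose and 1 fell, where 13.7% of all genes were called. The one that fell was SPDEF, a goblet and Paneth cell factor, with a difference of -0.28 ± 0.09 (adjusted p = 0.021). The SPDEF call was lost without the second vehicle or the first wortmannin library, at an adjusted p of up to 0.16.

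SERPINA1 libraries of vehicle and of both inhibitors overlapped, and SERPINA1 was lower than vehicle in the fitted value of all 18 extract groups. Vehicle libraries held 441, 477 and 491 CPM, wortmannin libraries 404, 477 and 520 CPM and LY294002 libraries 433, 485 and 348 CPM, the last being the lowest of all 60. The wortmannin difference was -0.01 ± 0.09 (adjusted p = 0.97, interval -0.19 to 0.17). The LY294002 difference was -0.15 ± 0.09 and was -0.03 without the third library. Over the 51 extract libraries SERPINA1 ran from 361 to 476 CPM with a median of 405 CPM. Fitted differences ran from -0.29 to -0.09. Of the 18 fitted values against vehicle, APOH also had 18 below 0, HNF4A 17, HNF4G 13 and LYZ 3. All 18 comparisons share the 3 vehicle libraries and all cross code sets. SERPINA1 was called lower than vehicle in 2 of them, Poria and Glycyrrhizae at 500 µg/mL, where 7.49% and 6.91% of all genes were called. With Poria at 500 µg/mL the libraries held 387, 402 and 376 CPM, a difference of -0.27 ± 0.09 (adjusted p = 0.046). With Glycyrrhizae at 500 µg/mL they held 398, 361 and 396 CPM, a difference of -0.29 ± 0.09 (adjusted p = 0.038). Each of these calls was lost when any 1 of 5 libraries was left out: the 3 extract libraries or the second or the third vehicle library. The adjusted p then reached 0.19. When genes with low counts were kept in the fit, 14 of the 18 differences were called, with SEs of 0.05 to 0.06.

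Within an extract, SERPINA1 did not pass the test between 500 and 20 µg/mL in any of 6 comparisons. Differences ran from -0.18 to 0.03, and their intervals together covered -0.36 to 0.21. The largest was with Poria, where the libraries at 20 µg/mL held 437, 413 and 474 CPM, all above those at 500 µg/mL (-0.18 ± 0.09, adjusted p = 0.25). With genes of low counts kept, this difference was called (adjusted p = 0.016). The median spread within a group was larger for SERPINA1 than for the other 4 genes, with a coefficient of variation of 6.95% against 3.55% for HNF4A.

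**Figure D3:**
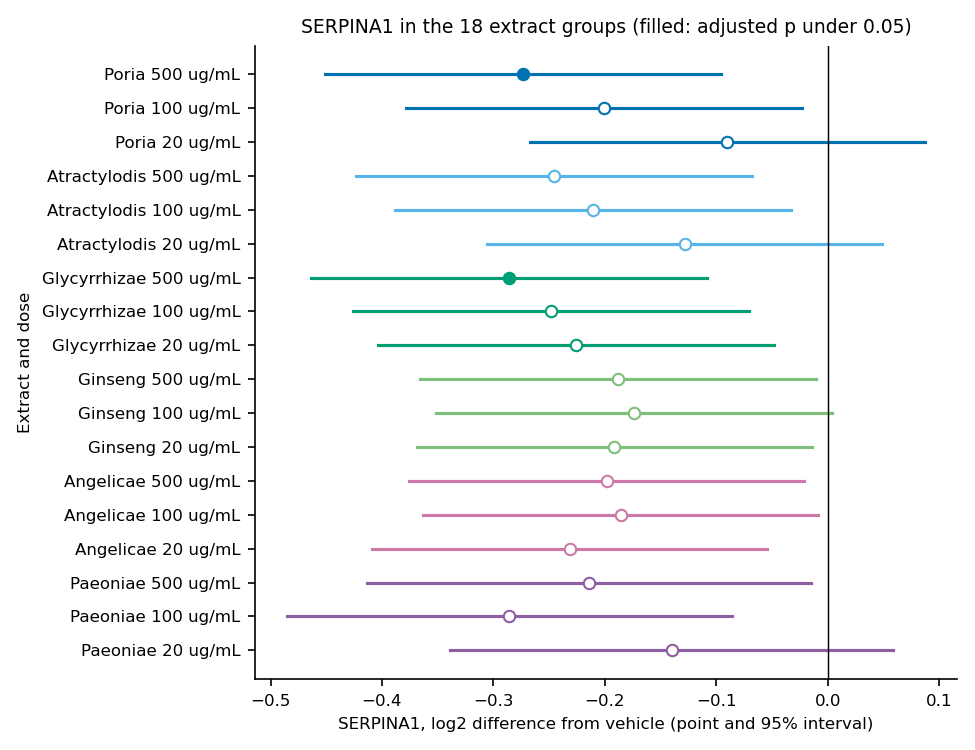
Log2 difference of SERPINA1 from vehicle (points) with 95% intervals (lines) in 18 groups of extract and dose, where filled points have an adjusted p under 0.05. All 18 points lie below 0, between -0.29 and -0.09, and the 2 filled points are Poria and Glycyrrhizae at 500 µg/mL.

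The share of all genes called against vehicle sets the scale for these counts. It was 7.49% with Poria at 500 µg/mL, 0.0417% at 100 and 0% at 20 µg/mL. It was 0.25%, 0.364% and 0.137% with Atractylodis at 500, 100 and 20 µg/mL, 6.91%, 0.34% and 0.37% with Glycyrrhizae, and 0.352%, 0% and 0% with Ginseng. It was 0.161%, 0.00596% and 0.173% with Angelicae, and 0.161%, 0.0477% and 0% with Paeoniae. Where edgeR called no gene, 834 genes had an unadjusted p under 0.05 with Poria at 20 µg/mL, 1773 and 2567 with Ginseng at 100 and 20 µg/mL and 1163 with Paeoniae at 20 µg/mL, and DESeq2 called 1, 5, 135 and 11 genes. Between 500 and 20 µg/mL, 5.51% of genes were called with Poria, 3.85% with Glycyrrhizae, 0.0179% with Angelicae and 0.0358% with Paeoniae. It was 0% with Atractylodis and with Ginseng, where 857 and 672 genes had an unadjusted p under 0.05 and DESeq2 called 0 and 1.

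Of the 23 tested plasma protein genes, 2 rose and 1 fell with LY294002, where 39.2% of all genes were called, and 4 rose with wortmannin, where 13.7% were. At 500 against 20 µg/mL, 2 rose with Poria and 3 fell with Glycyrrhizae, beside 5.51% and 3.85% of all genes. Against vehicle at 500 µg/mL, 1 rose with Poria, 2 with Atractylodis and 2 with Glycyrrhizae, where 3 also fell. The shares of all genes called were 7.49%, 0.25% and 6.91%. The 2 that rose with Atractylodis and with Glycyrrhizae were the complement genes C3 and CFB, which are also on the acute-phase list. C3 passed the count filter mainly through groups where it was high, so its part in these counts is no test. PROS1 fell with Glycyrrhizae by 0.21 ± 0.05 (adjusted p = 0.014), a call lost without the first or the third library at 500 or the third at 20 µg/mL (adjusted p up to 0.17). With wortmannin, IGF2 rose by 0.51 ± 0.07 (adjusted p = 1.7e-06) and PROS1 by 0.27 ± 0.05 (adjusted p = 0.0002). Of 14 tested genes of the acute-phase response and its signalling, 2 rose and 2 fell with LY294002, beside 39.2% of all genes. With wortmannin 1 of the 14 rose and with Poria at 500 against 20 µg/mL 3 rose, beside 13.7% and 5.51%. None of the 3 had both a mean of at least 5 CPM and no overlap between groups. With Poria C3 held 50, 6 and 8 counts at 500 and 3, 3 and 2 at 20 µg/mL. C3 and SAA1, on this list, passed the count filter mainly through groups where they were high, so their part in these counts is no test. IL6ST, the signalling subunit of the interleukin 6 receptor, fell with LY294002 by 0.28 ± 0.06 (adjusted p = 7e-05), and the kinase JAK1 rose by 0.20 ± 0.05 (adjusted p = 0.0016). No gene of the acute-phase list was called with Glycyrrhizae at 500 against 20 µg/mL.

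Genes of the acute-phase list were also compared with vehicle. At 500 µg/mL, 4 of its 14 tested genes rose and 0 fell with Atractylodis, where 0.25% of all genes were called, and 4 rose and 0 fell with Glycyrrhizae, where 6.91% were. They were LCN2, the complement genes C3 and CFB, and SAA1, serum amyloid A, in both, named after their values had been seen. LCN2 held 106.9, 121.2 and 123.4 CPM in vehicle, 153.7, 171.1 and 168.9 CPM with Atractylodis (0.49 ± 0.09, adjusted p = 0.0035) and 168.2, 160.4 and 184.9 CPM with Glycyrrhizae (0.55 ± 0.09, adjusted p = 9.4e-05). All libraries of both extracts lay above all vehicle libraries. CFB held 1.37, 1.52 and 1.28 CPM in vehicle, 4.64, 4.09 and 3.75 CPM with Atractylodis (1.57 ± 0.21, adjusted p = 5e-06) and 2.66, 2.23 and 3.47 CPM with Glycyrrhizae (0.99 ± 0.22, adjusted p = 0.0021). C3 was at 0 to 2 counts per vehicle library, 56 to 67 with Atractylodis and 41 to 50 with Glycyrrhizae. SAA1 had 0 counts in every vehicle library, 14 to 18 with Atractylodis and 4 to 6 with Glycyrrhizae. C3 and SAA1 reached the minimum count of 10 mainly in groups where they were high. Their part in the 4 calls is thus no test, and no p-value is given for them. The calls of LCN2 and CFB held in the 10 or 11 alternatives that gave them a value. These comparisons cross code sets. At 20 µg/mL, LCN2 held 188.4, 175.0 and 185.5 CPM with Atractylodis and 157.1, 141.9 and 150.7 CPM with Glycyrrhizae. CFB held 3.84, 4.08 and 4.17 CPM and 3.02, 2.43 and 2.92 CPM. None of the 14 genes was called at 500 against 20 µg/mL of either extract, where 0% and 3.85% of all genes were called. With their set partners at 500 µg/mL, LCN2 held 112.3, 115.3 and 95.8 CPM (Poria) and 112.0, 93.8 and 101.5 CPM (Ginseng). SERPINA1, also an acute-phase protein, was lower than vehicle in the fitted value of both extracts at 500 µg/mL.

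APOH was highest with LY294002. Vehicle libraries held 20.1, 25.1 and 21.5 CPM, wortmannin libraries 23.8, 24.0 and 25.9 CPM and LY294002 libraries 28.0, 30.4 and 25.3 CPM. The LY294002 libraries lay above all vehicle libraries, the lowest by little, since the second vehicle library stood apart. The LY294002 difference, for which APOH was chosen, was 0.32 ± 0.06, and 0.42 without the second vehicle library. With wortmannin it was 0.14 ± 0.06 (adjusted p = 0.13, interval 0.01 to 0.27), and without the second vehicle library it was 0.24 and called (adjusted p = 0.012). This test and those of the extracts against vehicle share their vehicle libraries with the comparison that chose APOH. In the 51 extract libraries APOH ran from 18.3 to 22.8 CPM with a median of 21.3 CPM. No extract dose was called against vehicle and none at 500 against 20 µg/mL, and all 18 fitted values against vehicle were below 0. Poria at 500 µg/mL against vehicle was -0.15 ± 0.06 (adjusted p = 0.13), ran from -0.22 to -0.057 with 1 library left out and was called without the first vehicle library (-0.22, adjusted p = 0.035). The 500 against 20 µg/mL differences ran from -0.09 to 0.09, and their intervals together covered -0.22 to 0.25. Of 11 tested apolipoprotein and lipoprotein assembly genes, 1 rose and 1 fell with LY294002, where 39.2% of all genes were called. With wortmannin 1 of the 11 rose, where 13.7% of all genes were called. The gene that fell with LY294002 was APOO, a mitochondrial cristae protein despite its name, with a change of -0.72 ± 0.11 (adjusted p = 1.3e-06). The gene that rose with wortmannin was APOL1, by 0.30 ± 0.08 (adjusted p = 0.0078), a call lost without the third vehicle or first wortmannin library (adjusted p up to 0.14). None of the 11 was called at 500 against 20 µg/mL of any extract.

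**Figure D4:**
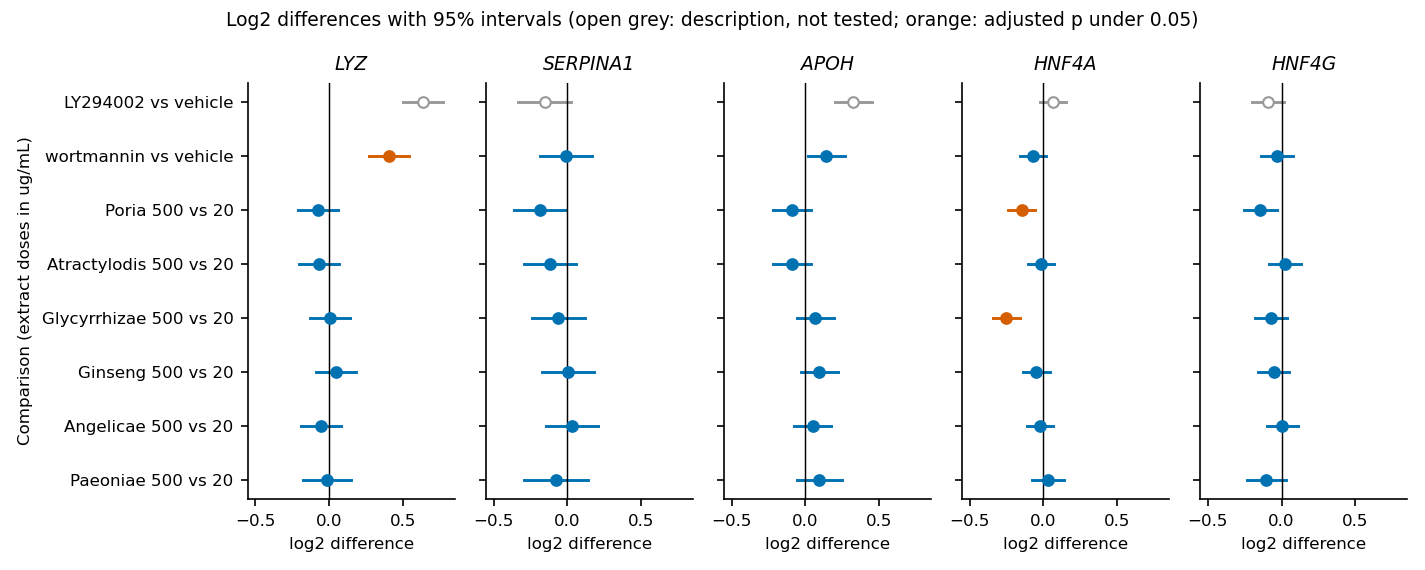
Log2 differences (points) with 95% intervals (lines) for the 5 genes in the inhibitor comparisons and at 500 against 20 µg/mL of 6 extracts, where open grey points were not tested and orange points have an adjusted p under 0.05. The 3 orange points are LYZ with wortmannin at 0.41 and HNF4A with Poria at -0.15 and with Glycyrrhizae at -0.25.

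HNF4A fell with the highest dose of Glycyrrhizae. The libraries at 20 µg/mL held 99.0, 98.3 and 100.1 CPM, those at 100 µg/mL 93.6, 91.2 and 97.2 CPM and those at 500 µg/mL 88.7, 82.5 and 78.6 CPM. The 3 doses did not overlap. Between 500 and 20 µg/mL the difference was -0.25 ± 0.04 (adjusted p = 0.00036, interval -0.34 to -0.16), with a level of 0.840 times that at 20 µg/mL. The rule that chose these genes names no response of HNF4A to an extract, but earlier results of these data were known then. Against vehicle, whose libraries held 108.0, 100.6 and 100.0 CPM, it was -0.30 ± 0.04 (adjusted p = 1.2e-05). Both calls held when each library was left out in turn. Epithelial markers summed to 13372 CPM at 20 and 13235 CPM at 500 µg/mL of Glycyrrhizae. That sum is mainly KRT8 and KRT18, which averaged 6656 and 3974 CPM over the 60 libraries. Of its members, VIL1 fell by 0.32 ± 0.04 (adjusted p = 3.2e-06) and LGALS4 by 0.22 ± 0.05 (adjusted p = 0.010), and the others are not given here. Mitochondrial genes took 7.14% to 8.01% of counts at 20 and 8.41% to 9.67% at 500 µg/mL. The part of the mitochondrial share in the HNF4A difference was not tested.

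HNF4A also passed the test with Poria, by a smaller margin. The libraries held 99.9, 105.8 and 105.2 CPM at 20 µg/mL, 98.3, 98.7 and 96.6 CPM at 100 µg/mL and 97.6, 87.9 and 94.9 CPM at 500 µg/mL. All libraries at 500 lay below all at 20 µg/mL, and the difference was -0.15 ± 0.04 (adjusted p = 0.037). The call was lost without the second or the third library at 20 µg/mL or the second or the third at 500 µg/mL, with an adjusted p of up to 0.23. It was also lost in a fit of the compared groups alone (adjusted p = 0.21) and when genes with low counts were kept (adjusted p = 0.18). Against vehicle HNF4A was -0.14 ± 0.04 with Poria at 500 µg/mL (adjusted p = 0.047), a call lost without any of 5 of the 6 libraries, the first Poria library being the exception. Poria at 500 µg/mL had a lower mitochondrial share than at 20 µg/mL, 7.33% to 8.22% against 8.34% to 9.17%, and its part in the difference was not tested. With the other 4 extracts the differences ran from -0.05 to 0.03 and none was called.

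Whether the dose effect on HNF4A differed between the 2 extracts of a code set was tested directly. Ginseng less Glycyrrhizae was 0.20 ± 0.06 (adjusted p = 0.39), Atractylodis less Poria 0.13 ± 0.06 (adjusted p = 0.59) and Paeoniae less Angelicae 0.06 ± 0.07 (adjusted p = 1.0). In these 3 tests 0.0477%, 0.394% and 0% of all genes were called. For the last, 410 genes had an unadjusted p under 0.05 and DESeq2 called 0. The intervals for HNF4A, 0.08 to 0.33 and 0.004 to 0.26 in the first pair of tests, lay above 0 before adjustment. None of the 5 genes was called in any of the 3 tests. With the inhibitors HNF4A held 100.1, 100.7 and 92.7 CPM for wortmannin, a difference of -0.07 ± 0.04 (adjusted p = 0.32), and 111.8, 104.1 and 106.8 CPM for LY294002, a difference of 0.06 ± 0.04.

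HNF4G, on chromosome 8, showed a smaller range than HNF4A. Vehicle libraries held 55.4, 56.7 and 50.5 CPM, wortmannin libraries 54.6, 54.2 and 50.1 CPM and LY294002 libraries 51.1, 51.4 and 49.8 CPM. The groups overlapped, with differences of -0.03 ± 0.05 for wortmannin (adjusted p = 0.77) and -0.09 ± 0.05 for LY294002. With Poria HNF4G held 44.5, 47.2 and 52.5 CPM at 500 µg/mL, and 52.2, 52.5 and 54.5 CPM at 20 µg/mL. Poria at 500 µg/mL was called lower than vehicle, at -0.17 ± 0.05 (adjusted p = 0.037), although the third Poria library lay above the third vehicle library. The call was lost without the first or second Poria library or the first or second vehicle library, with an adjusted p of up to 0.29. Against 20 µg/mL the difference was -0.14 ± 0.05 (adjusted p = 0.12), and without the third library at 500 µg/mL it was -0.21 and called (adjusted p = 0.026). With Glycyrrhizae HNF4G held 49.7, 46.4 and 49.6 CPM at 500 µg/mL and 49.9, 53.6 and 49.98 CPM at 20 µg/mL, a difference of -0.07 ± 0.05 (adjusted p = 0.55). Glycyrrhizae at 500 µg/mL against vehicle was -0.16 ± 0.05 (adjusted p = 0.068) and was called without the third vehicle library (-0.21, adjusted p = 0.036). The 500 against 20 µg/mL differences of all 6 extracts ran from -0.14 to 0.03 and none was called. The share of these 5 genes called at 500 against 20 µg/mL was thus 1 of 5 with Poria and 1 of 5 with Glycyrrhizae, the same gene in both, beside 5.51% and 3.85% of all genes.

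**Figure D5:**
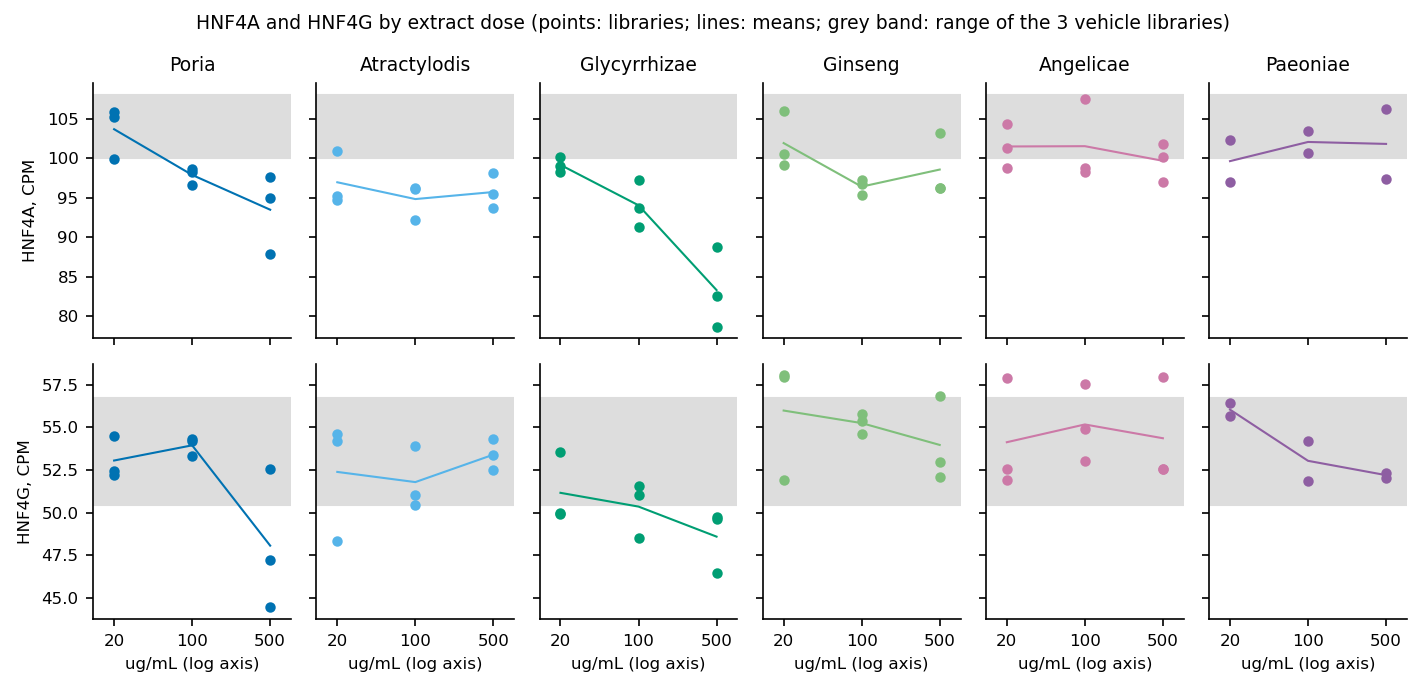
HNF4A (top) and HNF4G (bottom) in CPM by dose of 6 extracts (log axis), with 1 point per library, lines through the means and a grey band for the range of the 3 vehicle libraries. HNF4A with Glycyrrhizae runs from 98.3 to 100.1 CPM at 20 µg/mL down to 78.6 to 88.7 CPM at 500 µg/mL, and the vertical axes do not start at 0.

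Genes on a list of HNF4-bound intestinal and hepatic genes changed in both directions. Whether HNF4A or HNF4G regulates them in HT29 was not tested. Of 52 listed genes 27 were tested. With Glycyrrhizae at 500 against 20 µg/mL, where 3.85% of all genes were called, 7 fell and 2 rose, with a median of -0.19 against -0.01 over all genes. The microvillus protein VIL1 fell by 0.32 ± 0.04 (adjusted p = 3.2e-06), from 175 ± 12 to 140.3 ± 4.4 CPM. The sodium-glucose transporter SLC5A1 fell by 0.38 ± 0.07 (adjusted p = 0.0003), from 14.7 ± 1.0 to 11.3 ± 0.4 CPM. The brush border myosin MYO7B was -0.51 ± 0.14 (adjusted p = 0.024), a call lost without any of 5 libraries, all but the first at 500 µg/mL (adjusted p up to 0.16). With Poria at 500 against 20 µg/mL, where 5.51% of all genes were called, 6 fell and 3 rose, with a median of -0.22 against -0.002. MYO7B fell by 0.53 ± 0.13 (adjusted p = 0.011), a call lost without the second library at 20 µg/mL. UGT1A6, a glucuronidation enzyme whose exons are shared with other UGT1A genes so that its reads may be divided among them, rose by 0.60 ± 0.07 (adjusted p = 2e-07).

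With LY294002, where 39.2% of all genes were called, 10 of the 27 rose and 5 fell, with a median of 0.20 against 0.01. With wortmannin, where 13.7% were called, 6 rose and 3 fell, with a median of 0.14 against 0. MYO7B rose with LY294002 by 0.68 ± 0.12 (adjusted p = 7.7e-06). TM4SF4, a tetraspanin relative of intestine and liver, fell by 0.60 ± 0.06 (adjusted p = 2.5e-11). VIL1 rose with wortmannin by 0.39 ± 0.04 (adjusted p = 2.1e-09), while the mucin MUC13 fell by 0.29 ± 0.07 (adjusted p = 0.0024) and UGT1A1, which shares its exons with UGT1A6, by 0.32 ± 0.05 (adjusted p = 3.1e-06). With the other 4 extracts none of the 27 was called at 500 against 20 µg/mL.

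Of 34 tested transcription factors of liver and gut, 5 rose and 9 fell with LY294002 and 1 rose and 4 fell with wortmannin, shares near the 39.2% and 13.7% of all genes called. At 500 against 20 µg/mL, 1 rose and 2 fell with Poria, beside 5.51% of all genes, and 0 were called with Glycyrrhizae, beside 3.85%. CDX2 rose with LY294002 by 0.74 ± 0.12 (adjusted p = 1.2e-06), from 5.10 ± 0.39 to 8.52 ± 0.59 CPM. RXRB, a partner of many nuclear receptors, rose by 0.36 ± 0.07 (adjusted p = 3.3e-05), and ONECUT2, a relative of HNF6, fell by 0.44 ± 0.06 (adjusted p = 6e-08). With wortmannin PROX1, a liver and endothelial homeobox factor, rose by 0.37 ± 0.08 (adjusted p = 0.0012) and KLF5, a crypt factor, fell by 0.30 ± 0.07 (adjusted p = 0.0026). FOXA1 fell by 0.20 ± 0.07 (adjusted p = 0.037), a call lost without any of 5 of the 6 libraries, all but the first vehicle library (adjusted p up to 0.21). With Poria PROX1 fell by 0.36 ± 0.09 (adjusted p = 0.006), a call lost without the third library at 20 µg/mL, and CEBPG rose by 0.18 ± 0.05 (adjusted p = 0.02), lost without any of 3 libraries (adjusted p up to 0.12).

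In Paneth and antimicrobial secretion, 1 of 19 genes rose and 3 fell with Poria and 0 rose and 4 fell with Glycyrrhizae, both at 500 against 20 µg/mL, beside 5.51% and 3.85% of all genes. CD24 fell in both, by 0.22 ± 0.04 (adjusted p = 0.00024) and 0.24 ± 0.04 (adjusted p = 0.00015). SPDEF was -0.34 ± 0.09 with Glycyrrhizae (adjusted p = 0.015), a call lost without the first library at 20 or the third at 500 µg/mL (adjusted p up to 0.10). PI3, the elastase inhibitor elafin, rose with Poria by 1.24 ± 0.19 (adjusted p = 2.6e-05), from 6.30 ± 0.91 to 14.6 ± 7.4 CPM. It was 0.73 without the first library at 500 µg/mL, and the call was lost in a fit of the compared groups alone (adjusted p = 0.066).

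Genes were also compared by the likeness of their pattern over the 21 group means. Likeness was the Pearson correlation of log2 CPM over group means, among 10655 genes with a mean of at least 5 CPM, and it is a description without a test, since group means share library sets. Among the 3 genes most like SERPINA1 were MUC20P1, a mucin pseudogene, at r = 0.889 and PLEKHA6 at 0.868, and over the 19 groups without the inhibitors these were 0.886 and 0.826. The genes most like LYZ were UCP2 at 0.964, IRS2, the insulin receptor adaptor, at 0.964 and FAM114A1 at 0.959. These rested on the inhibitor groups, since without them the 3 correlations were 0.588, 0.578 and 0.448. For APOH they were NUCB1 at 0.929, PLD3 at 0.918 and ZFP41 at 0.914, and without the inhibitor groups 0.631, 0.483 and 0.513. HNF4A was most like ITPR2, a calcium channel of the endoplasmic reticulum, at 0.883, TBC1D9B at 0.857 and PPM1L at 0.855. HNF4G was most like PRLR, the prolactin receptor, at 0.851, ARL15 at 0.842 and CHST3 at 0.839. By rank correlation, 1 of these 3 was again among the first 3 for HNF4G (PRLR), and 0 for LYZ, APOH and HNF4A. Among the 5 genes themselves, LYZ and APOH had r = 0.877 over 21 groups and 0.164 without the inhibitors, and HNF4A and HNF4G had 0.530 and 0.682.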

How the data were processed

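The authors deposited a table of expected counts from RSEM, 1 row per Ensembl gene, without normalisation. Per the submitters' processing notes, the tools were FastQC 0.11.9, Trim Galore 0.6.5, STAR 2.7.3a and RSEM 1.3.3, with GRCh38 (hg38). Per the labels' protocols, libraries were made from mRNA with a directional kit and sequenced as 100 bp pairs. No source used here gives the release of the gene annotation or whether counting used strand. Libraries were matched to columns by the codes in their descriptions, and 213 columns of the table were not used here. Symbols came from GENCODE 29.

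Expected counts were rounded and filtered with filterByExpr (minimum count 10, minimum total count 15), leaving 16767 genes, all 5 described genes among them. One edgeR 4.0.16 quasi-likelihood fit (R 4.3.3, TMM) with a mean per group covered 60 libraries, with 39 residual degrees of freedom and a common biological coefficient of variation of 0.0570. SEs are the log2 difference over the root of the F statistic, and p-values were adjusted by Benjamini-Hochberg within each comparison. Alternatives were DESeq2 1.42.0 and its size factors, no filter, a replicate block, a fit of the compared groups alone and leaving out each library. Samples of the same number in a pair of groups did not deviate together by the rule used in any of 27 pairs of groups. No replicate pair looked like a library counted again.

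The 5 genes and the lists were chosen with earlier results of these data known. Genes named from lists were the most abundant per kilobase and up to 3 called genes per list and comparison with the largest change at a mean of at least 5 CPM and no overlap between groups. For likeness of pattern, the first 3 genes by correlation were named for each described gene. Some genes that these rules pick are not reported here.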

Additional observations from a re-analysis of the deposited data

How the results depend on the processing

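LYZ with wortmannin ran from 0.39 to 0.42 and stayed called in all 11 alternatives (largest adjusted p = 0.00046), as did HNF4A with Glycyrrhizae at 500 against 20 µg/mL, from -0.30 to -0.21 (largest adjusted p = 0.021). HNF4A with Glycyrrhizae at 500 µg/mL against vehicle ran from -0.35 to -0.26 and stayed called in all 11 (largest adjusted p = 0.010).

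With 1 library left out, LYZ with LY294002 ran from 0.51 to 0.70, SERPINA1 with LY294002 from -0.26 to -0.032, APOH with LY294002 from 0.26 to 0.42 and APOH with wortmannin from 0.074 to 0.24. SERPINA1 against vehicle ran from -0.32 to -0.24 with Poria and from -0.33 to -0.24 with Glycyrrhizae at 500 µg/mL. With Poria at 500 µg/mL, HNF4A ran from -0.17 to -0.10 against vehicle and from -0.18 to -0.11 against 20 µg/mL, and HNF4G from -0.24 to -0.12 against vehicle and from -0.21 to -0.087 against 20 µg/mL.

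Without a filter on low counts, SERPINA1 with Poria at 500 against 20 µg/mL was called at -0.18. HNF4A with Poria at 500 µg/mL lost its calls at -0.13 against vehicle and -0.15 against 20 µg/mL, and HNF4G lost its call against vehicle at -0.17. In a fit of the compared groups alone the values without a call were -0.14, -0.15 and -0.17. With DESeq2 size factors HNF4A against vehicle was -0.13 (adjusted p = 0.052). The cause of these changes was not tested. The replicate block changed none of 145 calls or values of the 5 genes past their spread. With it, HNF4A with Glycyrrhizae at 500 against 20 µg/mL was -0.25.

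Of 37 calls that the rule for naming genes from lists picks, 24 held in every alternative, and the fit of the compared groups alone ended 11 of the other 13. Counts of genes over the whole table moved more. A fit of the groups alone called 4555 genes in place of 6565 with LY294002, 1249 in place of 2300 with wortmannin, 193 in place of 924 with Poria and 398 in place of 645 with Glycyrrhizae at 500 against 20 µg/mL. Without the second library at 20 µg/mL Poria gave 472 genes, and without the third library at 20 µg/mL Glycyrrhizae gave 192. Against vehicle at 500 µg/mL, leaving out the third vehicle library gave 545 in place of 1256 genes with Poria and 552 in place of 1158 with Glycyrrhizae, and the fit of the groups alone gave 239 and 711. Without a filter, 66 genes became 226 for Atractylodis less Poria and 8 became 109 for Ginseng less Glycyrrhizae. Fitted values without a call changed sign in 112 of 925 results with 1 library left out, and no called value changed sign.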
